A study of Homo sapiens with 15 samples.

Results

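A MYC protein deficient in binding WDR5 was mapped along the genome of HEK293 cells, and its sites are described here on their own. The authors deposited 690 peaks for this mutant, named WBM-MYC, and every one of them was used. With the 2527 peaks of wild-type MYC (WT-MYC) and the 17171 peaks of WDR5, the deposited lists hold 20388 peaks in all. HEK293 is a human embryonic kidney line. All 3 anti-FLAG groups were transduced with a retrovirus that encoded FLAG-tagged WBM-MYC, FLAG-tagged WT-MYC or, in the vector control, no exogenous MYC, with 3 independent biological replicates per group. WDR5 and rabbit IgG were precipitated from HEK293 cells that the labels do not describe as transduced, also with 3 replicates each, which gives 15 libraries. The WBM-MYC list stands for 3 mutant and 3 vector libraries, but how the vector libraries entered the calling is not given in the sources used here. With 1 list per protein the replicates cannot be compared, so intervals and tests treat peaks as the units. The single comparisons by Fisher's exact test number 7, with Benjamini-Hochberg values adjusted over the 7. The raw and adjusted p are given, except for comparisons involving a stretch picked for its excess, which are given as shares alone.

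MYC binds DNA as a partner of MAX, mostly at promoters that are already active, and drives genes of growth, ribosome production and metabolism. WDR5 is a small propeller-shaped protein that holds together the enzyme complexes that methylate lysine 4 of histone H3 at active promoters, and it also contacts MYC directly. The anti-FLAG antibody is directed at the tag of the introduced protein, and the untagged MYC of the cells is not measured. Whether any listed peak comes from background of this antibody cannot be seen in the lists.

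Of the 690 peaks, 685 span exactly 456 bp, and 5 are narrower. All coordinates are hg19, counted from 1. Peaks that overlap a neighbour in the same list were joined for a check, which left 678 regions covering 311 kb. Set against both partner lists, 395 WBM-MYC peaks lay on both WT-MYC and WDR5, 102 on WT-MYC alone, 126 on WDR5 alone and 67 on neither. Overlap means at least 1 bp in common. Depth is unknown, because the lists carry no read counts, and a weak site may be missing from any list.

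The mutant reached 23 chromosomes, the autosomes and X, very unevenly. Chromosome 1 held 111 peaks, chromosome 6 held 65, chromosome 5 held 57, chromosome 9 held 56, chromosome 17 held 55 and chromosome 19 held 54. These 6 chromosomes together carried 57.7% of the mutant's peaks (exact 95% interval 53.9 to 61.4%), against 48.6% of WT-MYC peaks and 38.7% of WDR5 peaks, and were grouped after their counts were seen. Chromosome 18 held 2 peaks and chromosome 22 held 7. Per megabase between the outermost WDR5 peaks, the mutant had 0.918 peaks on chromosome 19, 0.679 on chromosome 17, 0.537 on chromosome 21, 0.447 on chromosome 1 and 0.399 on chromosome 9. The sparsest were chromosomes 18 and 4, with 0.0257 and 0.0473 peaks per megabase.

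Relative to wild-type MYC, only chromosome 9 passed the test for a different share, and with the leading 50% of the WBM-MYC file 0 chromosomes did. It held 8.12% of WBM-MYC peaks and 4.71% of WT-MYC peaks (odds ratio 1.79, 95% interval 1.26 to 2.51; two-sided Fisher's exact test, p = 0.0196 after Benjamini-Hochberg adjustment for 23 chromosomes). That is 1 of 23 chromosomes, or 4.35%, with 4 below an unadjusted p of 0.05. The other 3 of those 4 were chromosome 5, with a larger share of the mutant's peaks (8.26 against 5.82%, adjusted p = 0.134 by Fisher's exact test), and chromosomes 12 and 22, with smaller shares (3.33 against 5.50% and 1.01 against 2.69%, adjusted p = 0.134 and 0.110). Most mutant sites are also in the WT-MYC list, so the lists are not independent. When only WT-MYC peaks without a mutant peak were compared, chromosomes 9 and 22 both passed. Of the 56 mutant peaks on chromosome 9, 33 lay at its end. Without the peaks of its last 2 bins of 5 Mb, which start at 135 Mb, chromosome 9 held 3.50% of WBM-MYC and 2.75% of WT-MYC peaks. That stretch was picked for its many mutant peaks, with earlier results known, so these shares are a description. The first and last mutant peaks of chromosome 9 start at 2843760 and end at 140506711.

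Relative to WDR5, 13 of 23 chromosomes (56.5%) passed the same test, 5 with a larger and 8 with a smaller share of the mutant's peaks. For every 100 WDR5 peaks there were 9.82 WBM-MYC peaks on chromosome 9, 8.59 on chromosome 21, 6.89 on chromosome 5, 6.34 on chromosome 6 and 5.93 on chromosome 1, the 5 with larger shares. The lowest number was on chromosome 18, at 0.743, followed by 1.42 on chromosome 4, 1.70 on chromosome 22 and 1.76 on chromosome 14.

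**Figure D1:**
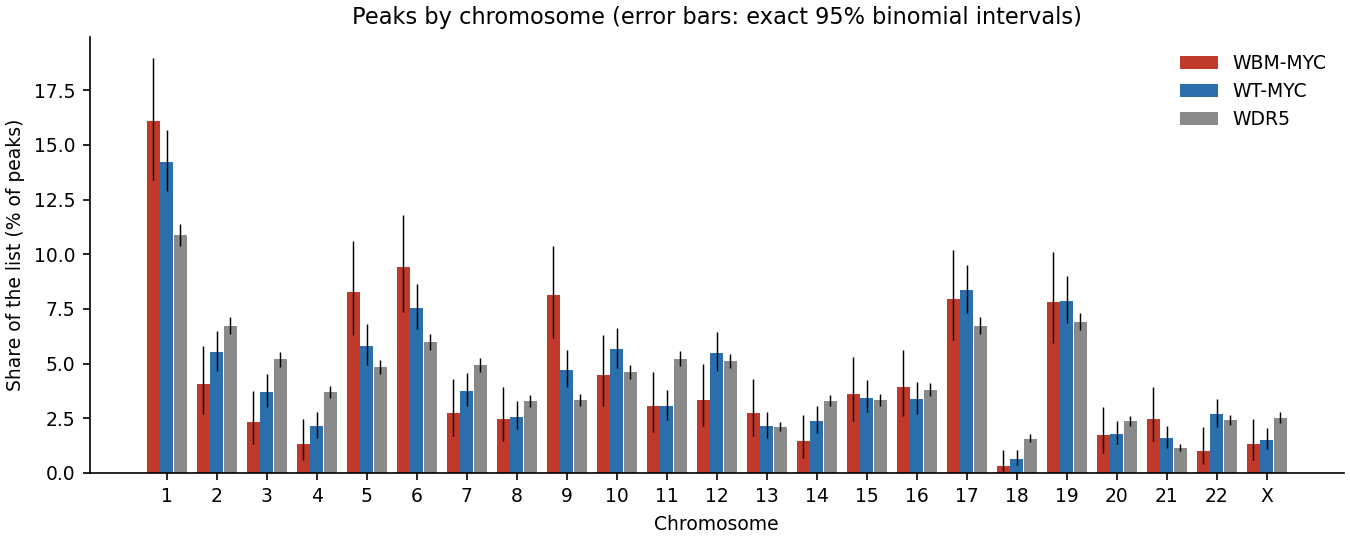
Share of each peak list by chromosome, in percent of the list's peaks, for WBM-MYC (red), WT-MYC (blue) and WDR5 (grey), with exact 95% binomial error bars. On chromosome 9 the red bar stands at 8.12%, above the blue bar at 4.71%.

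The densest stretch of mutant binding was at the end of chromosome 9. A window of 1 Mb at 139258058 to 140258057 held 17 WBM-MYC peaks and 25 WT-MYC peaks, and no WDR5 peak. Of the 17 mutant peaks, 9 lay on a WT-MYC peak. With no WDR5 peak listed there, none of the 17 could lie on one, and the nearest WDR5 peaks were 231862 to 1170896 bases away. The tightest part was a run of 8 mutant peaks from 140056440 to 140197547, of which 6 lay on WT-MYC. Here 7 peaks fell within 97.7 kb, more than in any other window of 100 kb. The overlapping peaks at 140099862 to 140100317 and 140100086 to 140100541 share 1 WT-MYC peak, at line 385 of the WT-MYC file. Peaks of this window stand at lines 5 to 646 of the WBM-MYC file, so they belong to no single part of it.

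Next came chromosome 16, where WDR5 was present. Its window at 29911205 to 30911204 held 16 WBM-MYC peaks, 20 WT-MYC peaks and 35 WDR5 peaks. WDR5 overlapped 8 of the 16 mutant peaks, and WT-MYC overlapped 8. The 8 mutant peaks without WDR5 were 15506 to 39257 bases from one. A run of 5 mutant peaks from 30366731 to 30457160 touched WT-MYC only once, at 30418424 to 30418879, while 3 of the 5 lay on WDR5. The 4 WT-MYC peaks in that 100-kb window all lay on WDR5. A further run of 5, from 30786528 to 30825994, had 3 on WT-MYC and 2 on WDR5. On the rest of chromosome 16 there were 11 mutant peaks, 7 of them on WDR5.

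The remaining dense windows were much thinner. On chromosome 8, 7 mutant peaks from 145157766 to 146127436 included 4 on WT-MYC and 2 on WDR5, beside 16 WDR5 peaks. Tied at 6 peaks each were 5 further windows. On chromosome 9, the window spanning 131084540 to 132021161 had 3 of 6 on WDR5, and the one spanning 135457374 to 136447136 had 2 of 6. On chromosome 15, the peaks from 74583740 to 75497474 had 4 of 6 on WDR5. On chromosome 19, all 6 peaks from 510502 to 1438629 lay on WDR5, and 3 of 6 did from 50180624 to 50918358. The windows were chosen for their mutant peak counts, so no test was made of those counts. In a fixed grid of 1-Mb bins, 463 bins held a mutant peak, 329 of them a single one, and 10 held 5 or more.

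**Figure D2:**
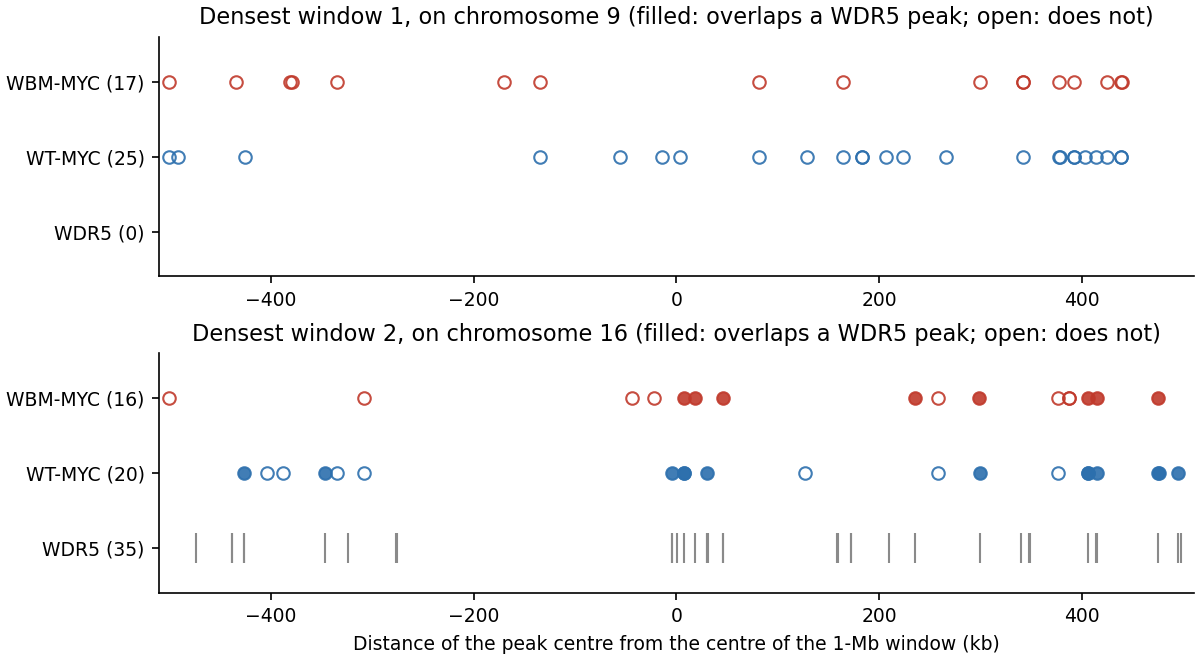
Position of every peak in the densest pair of 1-Mb windows, in kb from the window's centre, for WBM-MYC (red), WT-MYC (blue) and WDR5 (grey ticks), with filled circles for MYC peaks that overlap a WDR5 peak. In the window on chromosome 9 all 17 red circles are open and no WDR5 tick is present, and on chromosome 16 there are 8 filled and 8 open red circles among 35 ticks.

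The end of chromosome 9 differed from the rest of that chromosome in WDR5. In the last 2 bins of 5 Mb, 2 of 33 mutant peaks lay on WDR5 (6.06%, exact 95% interval 0.743 to 20.2%), among 51 WT-MYC and 13 WDR5 peaks. Before them, 16 of 23 did (69.6%, 47.1 to 86.8%), among 68 WT-MYC and 557 WDR5 peaks. The stretch was picked for this pattern, so the shares are a description. WT-MYC lay on 19 of the 33 mutant peaks (57.6%, 39.2 to 74.5%) and on 72.8% of the mutant peaks elsewhere in the genome. A stretch picked for its many mutant peaks cannot test this difference, so these shares are a description too. Fewer WDR5 sites and WDR5 sites missed in calling cannot be told apart in peak lists.

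Most mutant sites stood alone. The nearest other WBM-MYC peak was a median of 407058 bp away, centre to centre (interquartile range 87770 to 1497521 bp). WT-MYC peaks, of which there are more, had a median of 116732 bp. Another mutant peak lay within 100 kb for 27.4% (24.1 to 30.9%) and within 10 kb for 7.54% (5.68 to 9.77%). The corresponding WT-MYC shares were 46.6 and 15.0%. A longer list is denser by number alone, so these shares do not compare the proteins. The most isolated mutant peak, on chromosome 11 at 118306844 to 118307299, was 40958380 bp from the next and lay on both WT-MYC and WDR5.

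Close neighbours came only in pairs. With a gap of at most 10 kb between centres, there were 26 pairs and no cluster of 3 or more. In 12 pairs the peaks overlapped each other, and in 9 pairs the centres were over 1 kb apart. Chromosome 9 held 5 of the pairs, chromosome 6 held 4, and chromosomes 5 and 13 held 3 each. Both members lay on WDR5 in 14 pairs, neither did in 8, and 1 of them did in 4. The closest pair, on chromosome 20 at 37063576 to 37064234, had centres 203 bp apart, and both members lay on WT-MYC and WDR5. Another overlapping pair, on chromosome 15 at 75230042 to 75230722, lay on 1 WDR5 peak and on no WT-MYC peak. The pair on chromosome 19 at 50828776 to 50829455 lay on neither.

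Paired peaks overlapped WDR5 less often than single ones. The shares were 61.5% of 52 paired peaks (47.0 to 74.7%) and 76.6% of 638 single peaks (73.2 to 79.9%), an odds ratio of 0.488 (0.262 to 0.929; Fisher's exact p = 0.0188, adjusted 0.044). Without chromosome 9 the call was lost (odds ratio 0.629, 0.302 to 1.39, Fisher's exact p = 0.234), as it was with a gap of 5 kb (0.584, p = 0.109). WT-MYC overlap was 63.5% of paired and 72.7% of single peaks, which did not pass the test (odds ratio 0.651, 0.349 to 1.25, Fisher's exact p = 0.152, adjusted 0.192). Members of a pair are not independent, so these p-values can be too small.

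Larger groups appeared when wider gaps were allowed. At 50 kb, 7 groups had 3 or more peaks and the largest, of 8 peaks, was the run on chromosome 9 that starts at 140056440. At 100 kb, 16 groups had 3 or more, and the largest was on chromosome 16 from 30645728 to 30969446, with 10 mutant peaks, 6 of them on WT-MYC and 5 on WDR5. Of these 16 groups, 6 had WDR5 on every mutant peak and 4 had it on none. Among the 6 were 3 peaks on chromosome 6 from 160147796 to 160183528, 3 on chromosome 9 from 116102349 to 116173288 and 3 on chromosome 13 from 76054875 to 76123750. On chromosome 15, all 3 peaks from 75230042 to 75288002 lay on WDR5 and none on WT-MYC.

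**Figure D3:**
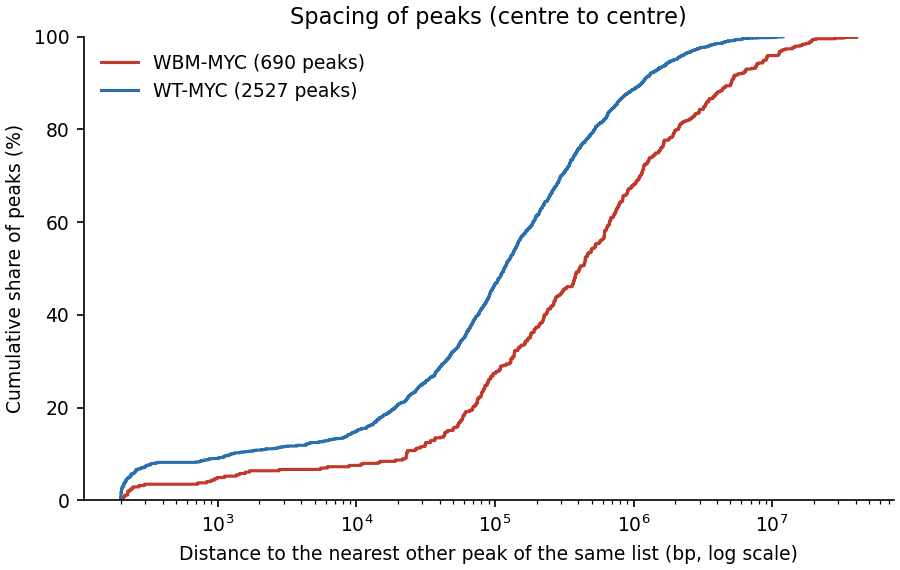
Cumulative share of peaks, in percent, against the centre-to-centre distance to the nearest other peak of the same list, in bp on a log scale, for 690 WBM-MYC (red) and 2527 WT-MYC peaks (blue). The red curve reaches 7.54% at 10 kb and 27.4% at 100 kb.

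Between the mutant's sites lay long stretches without any. Gaps of over 20 Mb numbered 22. The longest, on chromosome 4 from 1714650 to 83351368, was 81.6 Mb and held 22 WT-MYC and 253 WDR5 peaks. On chromosome 9 the gap from 21975086 to 95055885 held 19 WT-MYC and 186 WDR5 peaks, and on chromosome 3 the gap from 52720301 to 120067812 held 15 and 183. A much shorter gap also held many WDR5 peaks. On chromosome 6, the 12.1 Mb from 24775565 to 36842245 held 210 WDR5 and 18 WT-MYC peaks and no mutant peak, although the chromosome carried 65 in all. The gaps were picked for their length or their WDR5 count, so they are a description. Their lengths are plain coordinate spans, from which no unassembled or unmappable sequence was taken out.

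The first 25 lines of the WBM-MYC file were all sites shared with wild-type MYC, and most of them lacked WDR5. The file is not sorted by position, and what its order means is not stated. Its first 10 peaks lay on 10 different chromosomes, and each overlapped a WT-MYC peak. The first line is a peak of 173 bp on chromosome 11 at 66189199 to 66189371, whose partner is also the first line of the WT-MYC file, with the nearest WDR5 peak 16758 bases away. The second, on chromosome 7 at 154861603 to 154862058, lay on a WDR5 peak that stands late in the WDR5 file, at line 16853 of 17171. The third, on chromosome 20 at 30556166 to 30556621, was 16237 bases from WDR5. The fourth, on chromosome X at 153140752 to 153141207, was 55821 bases from it.

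Line 5, on chromosome 9 at 139622637 to 139622813, was 177 bp wide and 806596 bases from WDR5. Line 6, on chromosome 3 at 48699062 to 48699517, was 23531 bases from it. WDR5 overlapped line 7, on chromosome 21 at 40685535 to 40685990, and line 8, a peak of 123 bp on chromosome 17 at 49230835 to 49230957. Line 9, on chromosome 5 at 176264613 to 176265068, was 168273 bases from WDR5. Line 10, a peak of 128 bp on chromosome 19 at 45582418 to 45582545, lay on WDR5. The partners of these 10 peaks stood at lines 1, 23, 61, 22, 19, 29, 7, 2, 9 and 8 of the WT-MYC file. So 4 of the mutant's 5 narrow peaks are among its first 10 lines, and the other one is at line 194.

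Further down the head of the file, all of the first 25 mutant peaks lay on WT-MYC, 13 of them on one of the first 25 WT-MYC lines. WDR5 overlapped 10 of these 25 (40%, exact 95% interval 21.1 to 61.3%), and the other 15, on 11 chromosomes, were a median of 41708 bases from WDR5. In the first decile, 37 of 69 peaks lay on WDR5 (53.6%, 41.2 to 65.7%), against 484 of the 621 later peaks (77.9%, 74.5 to 81.1%; odds ratio 0.327, 0.191 to 0.566; Fisher's exact p = 2.67e-05, adjusted 0.000187). Without chromosome 9 the odds ratio was 0.275 (0.155 to 0.493, Fisher's exact p = 9.38e-06). Within the leading 50% of the file the odds ratio was 0.356 (0.199 to 0.643, Fisher's exact p = 0.00029). This difference was known from earlier results of these data, so these p-values describe it and cannot test it. The first decile held 7 of the 56 chromosome 9 peaks.

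The first decile also held the most far sites, with 14 peaks over 100 kb from WDR5, against 3 to 10 in each of the other 9 deciles. The fifth decile came next with 10. The number off WDR5 but within 10 kb was 3 in the first decile and 7 in the last, and 2 to 5 in the deciles between them. Mutant peaks on WT-MYC numbered 64 of 69 in the first decile and 35 of 69 in the last. Across the 497 mutant peaks on WT-MYC, the line in the WBM-MYC file and that of the partner in the WT-MYC file had a Spearman rho of 0.433. Across the 521 on WDR5 the rho with the WDR5 line was 0.0671. Both are descriptions over peaks, which are not independent replicates.

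**Figure D4:**
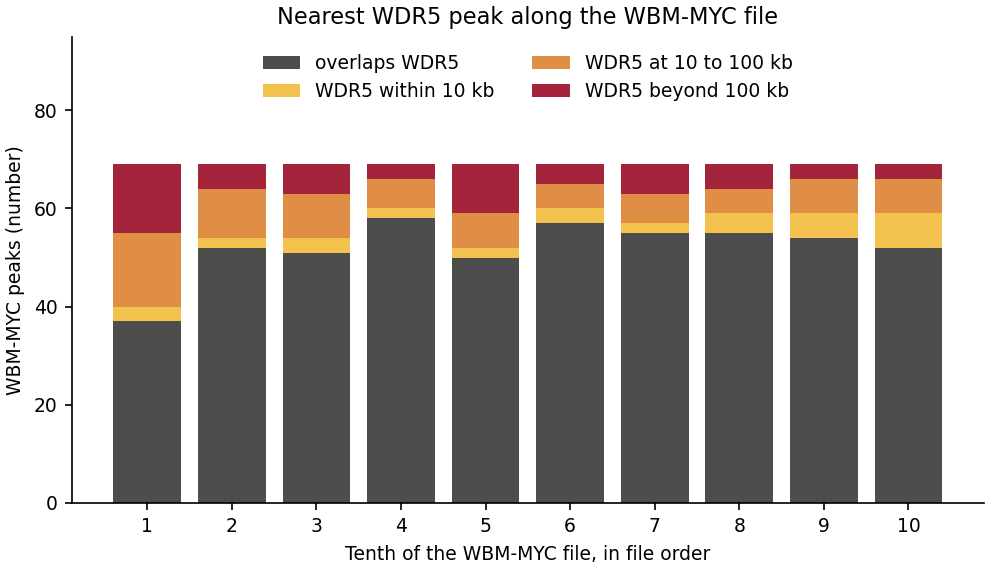
Number of WBM-MYC peaks in each of 10 equal parts of the file, in file order, that overlap a WDR5 peak (dark grey) or have the nearest one within 10 kb (yellow), at 10 to 100 kb (orange) or beyond 100 kb (dark red). Of the 69 peaks in the leading part 37 overlap WDR5 and 14 are beyond 100 kb, against 52 and 3 in the last part.

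Mutant peaks off WDR5 were seldom beside it. Of the 690 peaks, 169 overlapped no WDR5 peak, and their median distance to the nearest one was 46293 bases, edge to edge (interquartile range 16237 to 215841 bases). Within 1 kb were 17 of the 169 (10.1%, exact 95% interval 5.97 to 15.6%), and within 10 kb 33 (19.5%, 13.8 to 26.3%). From 10 to 100 kb lay 77 and beyond 100 kb lay 59, of which 31 were on chromosome 9. Without chromosome 9, 131 peaks were left, with a median of 28397 bases. Counting overlaps and neighbours within 10 kb together, 80.3% of all mutant peaks had WDR5 (77.1 to 83.2%).

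Wild-type peaks off WDR5 had it nearby more often. Of 431 such WT-MYC peaks, 140 had WDR5 within 10 kb (32.5%, 28.1 to 37.1%), an odds ratio of 0.504 for the mutant (0.317 to 0.787; Fisher's exact p = 0.00183, adjusted 0.00639). Without chromosome 9 it was 0.556 (0.342 to 0.889, Fisher's exact p = 0.00994), and against WT-MYC peaks that have no mutant peak, 0.410 (0.255 to 0.650, Fisher's exact p = 5.83e-05). Within 1 kb were already 92 of the 431 WT-MYC peaks (21.3%, 17.6 to 25.5%) and 17 of the 169 mutant peaks (10.1%). The odds ratio there was 0.412 (0.223 to 0.727, Fisher's exact p = 0.000953), so much of the 10-kb difference lay within 1 kb. At 100 kb the difference did not pass the test (65.1 against 73.3%, odds ratio 0.679, 0.456 to 1.02, Fisher's exact p = 0.0571). The commonest WT-MYC width is 496 bp, a little more than that of the mutant, and many sites are in both lists. The lists also differ in length, with 690 WBM-MYC and 2527 WT-MYC peaks. Mutant peaks off WDR5 but within 10 kb of it had a median line of 472 in the WBM-MYC file. Those over 100 kb away had a median line of 288. Lists of equal length were not tested, so these odds ratios compare the lists and not the proteins.

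Among mutant peaks off WDR5, those on WT-MYC and those without it were not told apart by the share within 10 kb. The shares were 16 of 102 (15.7%, 9.24 to 24.2%) and 17 of 67 (25.4%, 15.5 to 37.5%), with an odds ratio of 0.547 (0.236 to 1.27; Fisher's exact p = 0.164, adjusted 0.192). Their median distances were 42107.5 and 62742 bases.

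The nearest of the 169 peaks were all but touching WDR5. On chromosome 9, the peak at 115513415 to 115513870 ended 2 bases before a WDR5 peak, and on chromosome 7 the peak at 23514121 to 23514576 was 5 bases from one. The next were on chromosome 1 at 230562222 to 230562677 (28 bases), chromosome 5 at 6632907 to 6633362 (49 bases) and chromosome 3 at 49027534 to 49027989 (61 bases). Overlap by 1 bp therefore splits a few sites that differ by only a few bases. At the other extreme stood an overlapping pair on chromosome 2 at 91816011 to 91816680, 2750575 and 2750789 bases from WDR5 and far from WT-MYC as well, at 2568862 and 2569076 bases. The next 3 were on chromosome 9, at 139093513 to 139093968, 139258058 to 139258513 and 139323340 to 139323795, between 1105614 and 1304688 bases away. Of 9 peaks more than 1 Mb from WDR5, 7 were on chromosome 9. The chromosome 2 pair was alone in its 5-Mb bin from 90 Mb, which held no WT-MYC or WDR5 peak. How well reads map there was not examined.

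**Figure D5:**
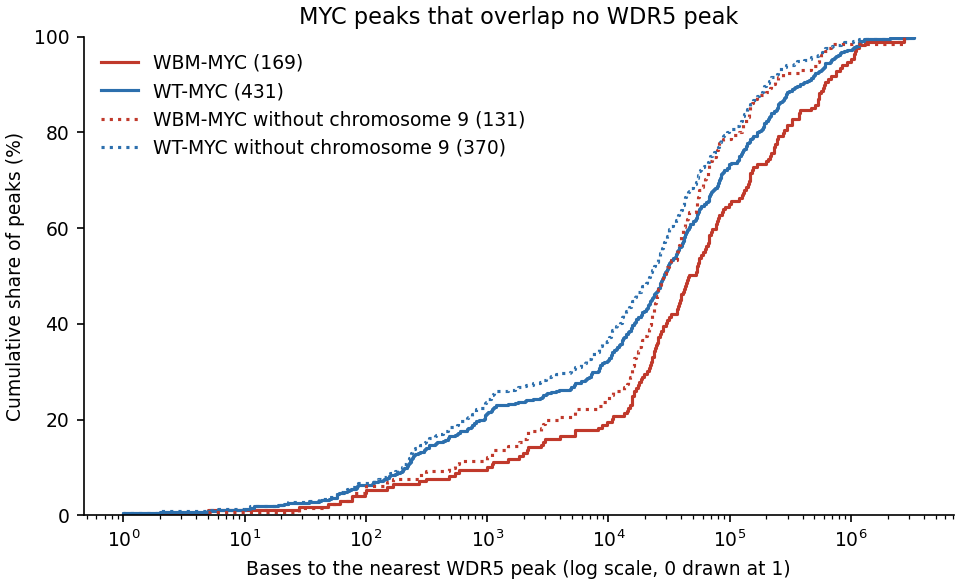
Cumulative share, in percent, of MYC peaks without WDR5 overlap against the bases to the nearest WDR5 peak on a log scale, for 169 WBM-MYC peaks (red) and 431 WT-MYC peaks (blue), with dotted curves that leave out chromosome 9. At 10 kb the red curve is at 19.5% and the blue curve at 32.5%.

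By chromosome, the share of mutant peaks on WDR5 differed from the other chromosomes on 3 of 23 (13.0%; two-sided Fisher's exact test with Benjamini-Hochberg adjustment), with 6 below an unadjusted p of 0.05. This test was added after the data were seen. On chromosome 1 it was higher, with 98 of 111 peaks (88.3%, against 73.1% elsewhere, Fisher's exact adjusted p = 0.00492). On chromosome 9 it was lower, with 18 of 56 (32.1 against 79.3%, Fisher's exact adjusted p = 1.74e-11), and on chromosome 8 as well, with 7 of 17 (41.2 against 76.4%, adjusted p = 0.0178). The low share of chromosome 9 came from its last 2 bins, with 2 of 33 on WDR5, against 16 of 23 before them. Neighbouring peaks are not independent, so its p can be too small. Of 2527 WT-MYC peaks, 431 lay off WDR5, and 370 when chromosome 9, with 119 WT-MYC peaks, was left out. WT-MYC peaks were thus often off WDR5 there as well. When chromosome 9 was left out, only chromosome 8 passed. The chromosome 8 call was lost with the leading 50% of the WDR5 file, and with the leading 50% of the WBM-MYC file only chromosome 9 passed. The dense window on chromosome 8 described above gave 2 of 7, and the rest of that chromosome 5 of 10. All 17 mutant peaks on chromosome 21 and all 7 on chromosome 22 lay on WDR5, which did not pass after adjustment (Fisher's exact p = 0.0178 and 0.204, adjusted 0.096 and 0.426). Chromosome 21 passed as higher when at least 50% of the shorter peak had to be shared, and with the leading 50% of the WDR5 file. On chromosome 16, 15 of 27 peaks did (55.6%, Fisher's exact adjusted p = 0.096), and on chromosome 19, 37 of 54 (68.5%, adjusted p = 0.438). Chromosome 19, with 17, came next after chromosome 9, with 38, in the number of mutant peaks off WDR5.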

How the data were processed

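Chromatin immunoprecipitation and sequencing was done in 15 libraries. The authors deposited 1 peak list per precipitated protein, with chromosome, start and end and no score or read count. The submitters' processing notes name hg19, Bowtie 0.12.7 and CASAVA 1.8.2. Which peak caller and threshold were used, whether replicates were pooled, and how vector and IgG reads entered is not given in the sources used here. Any of these could change which sites are listed. Groups were taken from the sample titles.

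Overlap was at least 1 bp, distances were bases between edges, spacing was between centres, and clusters were chains of centres at most 10 kb apart. Shares have exact 95% intervals, and Fisher's exact test, two-sided, compared classes (Python 3.11.15, scipy 1.17.1), adjusted over the 23 chromosomes or over the 7 single tests. All intervals cover counting error over peaks only. Overlap, distance and chromosome code was tested on simulated data. Genes and sequences need an hg19 annotation or genome, so no peak was given a gene, and the planned gene counts and motif search were not run. Named by rule were the first 10 lines, clusters of 3 or more, the 5 densest windows of 1 Mb and those tied with them, the 5 peaks nearest to and farthest from WDR5, the outermost peaks of a chromosome named in a test (given for chromosome 9 only), and the closest and most isolated peaks. Because no cluster of 3 or more exists at 10 kb, pairs and groups at wider gaps were named after their values were seen, as were the gaps. The mutant's peaks, these rules and the tests were chosen with earlier results of these data known.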

Additional observations from a re-analysis of the deposited data

How the results depend on the processing

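No paired analysis was possible because each group has 1 peak list, and for the same reason no replicate could be left out. Of 86 alternative values of 12 results, 42 were added after the data were seen. Of the 86, 60 stayed on their side of the threshold, within the interval of the value above or within 1.5 times the count. Joining overlapping mutant peaks left 14 clusters in place of 26 and took WT-MYC overlap of paired peaks past the test (odds ratio 0.432, Fisher's exact p = 0.0324). Over the whole WBM-MYC file, WDR5 overlap was 75.5% (72.1 to 78.7%), and with its leading 50% it was 71.9%. With that leading 50%, 16.2% had a neighbour within 100 kb, 7 clusters were found and paired peaks no longer differed in WDR5 (odds ratio 0.693, Fisher's exact p = 0.548). There, 0 chromosomes differed from WT-MYC, 7 from WDR5 and 1 in WDR5 overlap, and 12.4% of peaks off WDR5 were within 10 kb, with fewer peaks tested. The odds ratio against WT-MYC for that 10-kb share was then 0.293. Without chromosome 9, WDR5 overlap was 79.3%, 0 chromosomes differed from WT-MYC, 1 in WDR5 overlap, and the odds ratio for paired peaks was 0.629. An overlap of 50% of the shorter peak gave 71.2% on WDR5 and 31.7% of the others within 10 kb. The leading 50% of the WDR5 file gave 67.0% on WDR5. Gaps of 50 and 100 kb gave 46 and 78 clusters, and a gap of 5 kb an odds ratio of 0.584 for WDR5 in paired peaks. Of mutant peaks off WDR5, 10.1% were within 1 kb and 65.1% within 100 kb. At 1 kb those on WT-MYC had WDR5 nearby less often than those without (odds ratio 0.318, Fisher's exact p = 0.0357), and at 100 kb the odds ratio was 1.64 (Fisher's exact p = 0.14). Against WT-MYC at 100 kb it was 0.679. Against WT-MYC peaks without a mutant peak, 2 chromosomes differed. Apart from what follows from fewer peaks, wider gaps or other distances, the cause of these shifts was not tested. Peak lists have no depth, so sites just under the unstated calling threshold cannot be counted.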

Other observations

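Of the 497 mutant peaks on WT-MYC, 184 lay wholly inside 1 WT-MYC peak (37.0%, exact 95% interval 32.8 to 41.4%). There were 44 mutant peaks that touched 2 WT-MYC peaks, and 14 WT-MYC peaks touched more than 1 mutant peak. A mutant peak covered 2 or 3 WDR5 peaks in 71 cases.

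The 193 mutant peaks off WT-MYC were a median of 75367 bases from the nearest WT-MYC peak (interquartile range 27983 to 266495 bases). Within 1 kb lay 13 of them (6.74%, 3.63 to 11.2%) and within 10 kb 23 (11.9%, 7.71 to 17.3%), while 178 had a WT-MYC peak within 1 Mb (92.2%, 87.5 to 95.6%). Mutant peaks lay in 272 bins of 5 Mb, WT-MYC peaks in 482 and WDR5 peaks in 579.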
